A study of Mus musculus with 8 samples.

Results

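The comparison described here sets cardiac fibroblasts that overexpressed EphrinB2 against cardiac fibroblasts that carried a control vector, both kept in complete medium and collected at day 7. It rests on 4 of the 8 mouse RNA-seq libraries of the study, 2 per group. The other 4 libraries hold the same kinds of cells in osteogenic differentiation medium, also at day 7, and are used only where stated. The labels give no strain, age, sex, construct or delivery route for the EphrinB2 gene, and do not say whether the 2 libraries of a group are separate cultures. The p-values therefore speak only of the spread from library to library, which may be technical. Genes are reported where both libraries of one group lay apart from both libraries of the other, that is, where the lower library of one group exceeded the higher library of the other.

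EphrinB2 is a membrane-bound ligand encoded by Efnb2. It binds EphB receptors and EphA4 on neighbouring cells, and signals in both directions: forward through the receptor's kinase and in reverse through the ligand's own cytoplasmic tail. In the heart it is best known from endothelial cells, where it marks arteries. Cardiac fibroblasts make the collagenous matrix of the heart and can turn into contractile myofibroblasts.

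Values are FPKM, that is, fragments scaled to exon length and to the number of counted reads, which corrects for gene length and depth. The estimated number of counted reads was 18745719 and 18608295 in the vector libraries and 19310396 and 16493963 in the EphrinB2 libraries. In total, 12994 genes reached 1 FPKM in at least 2 of the 8 libraries and were tested with limma on log2(FPKM + 1). A log2 difference below is the EphrinB2 mean minus the vector mean on that scale, with its standard error (SE), and adjusted p-values are Benjamini-Hochberg values from limma over all 12994 genes. A two-sided exact permutation test of 2 libraries against 2 cannot go below p = 0.333, so none is given for single genes.

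Both EphrinB2 libraries differed from each other more than the vector libraries did. The SD over genes of the log2 difference between partners was 0.52 in EphrinB2 cells and 0.26 in vector cells. In EphrinB2 cells that difference rose with exon length (Spearman's rho 0.44). In vector cells rho was 0.04. Both are descriptions across genes, which share their libraries and are not replicates. For 5664 genes (43.6%), the 2 EphrinB2 libraries lay on opposite sides of both vector libraries, and for 25.8% they lay on the same side. The part of gene length in the results below was not tested beyond the alternative that removes its trend. EphrinB2 replicate 2 lay farther from the vector libraries, with a median absolute log2 difference of 0.24, against 0.13 for replicate 1.

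The labelled cell type was checked against its markers. Summed over the 10 fibroblast markers, FPKM was 4617 and 4463 in vector cells and 4706 and 5427 in EphrinB2 cells, with Col3a1, a fibrillar collagen chain, the highest. In EphrinB2 replicate 2, Col3a1, Col1a1, Col1a2, Pdgfra, Thy1, Ddr2 and Postn lay above both vector libraries, while Tcf21, Dcn and Lum lay below. Tcf21 was 196.6 and 195.1 FPKM in vector cells and 212.3 and 102.3 in EphrinB2 cells. Of the 10 markers, 4 lay higher in both EphrinB2 libraries and 1 lower, beside 14.3% and 11.5% of all genes. Macrophage markers were also present. Their sum was 2066 and 1809 in vector cells and 1738 and 838.4 in EphrinB2 cells, so replicate 2 of the EphrinB2 cells held 0.433 of the vector mean. Lyz2 made up most of that sum. The other 9 markers summed to 0.922 of the vector mean in replicate 1 and 0.646 in replicate 2. Endothelial markers summed to between 10.05 and 11.9 FPKM. Cardiomyocyte markers stayed under 1 FPKM in sum, with Actc1 and Myh6 at 0, and lymphocyte markers under 0.3, with Cd3e at 0.

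Efnb2 itself separated the groups most among the named protein-coding genes. Efnb2 (chr8:8617434-8661242, minus strand, GRCm38) stood at 6.30 and 5.56 FPKM in vector cells and at 31.27 and 32.85 FPKM in EphrinB2 cells. Behind these values lay an estimated 809, 709, 4139 and 3714 reads. Both EphrinB2 libraries were thus close to each other and far above both vector libraries, with a ratio of mean FPKM of 5.41. The log2 difference was 2.26 (SE 0.48, limma adjusted p = 1.0). In osteogenic medium, Efnb2 was 1.39 and 1.27 FPKM in vector cells and 5.02 and 18.28 in EphrinB2 cells. The model pools its spread over all 4 groups, and the distance between those last 2 libraries enters it. With either of them left out, Efnb2 passed in complete medium, with a limma adjusted p of 0.0248 or 0.0238.

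The step in the ligand's transcript had no counterpart of like size in its family. Of 22 ephrins and Eph receptors, 14 were tested. Besides Efnb2, 5 lay higher in both EphrinB2 libraries and 3 lay lower, and none passed the limma test. With Efnb2 included, 42.9% of the 14 lay higher and 21.4% lower. Over all genes tested, 14.3% lay higher and 11.5% lay lower.

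Among the receptors that bind EphrinB2, Ephb4, its main partner on veins, was 13.29 and 12.90 FPKM in vector cells and 11.73 and 17.38 FPKM in EphrinB2 cells. Ephb2 was 5.79 and 5.37 FPKM against 4.995 and 8.72 FPKM. In both, one EphrinB2 library lay below and the other above the vector libraries, so the groups overlapped. Ephb3 was 7.14 and 6.85 FPKM against 7.86 and 7.72 FPKM, a log2 difference of 0.14 (SE 0.12). Its groups did not overlap, though the step was small and they overlapped under 1 of 3 other scalings. Epha4, which also binds ephrin-Bs, was 0.92 and 1.00 FPKM against 0.84 and 1.46 FPKM and overlapped.

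Ephb6, a receptor without kinase activity, lay slightly higher at 3.335 and 3.599 FPKM, against 2.90 and 3.09 in vector cells. Epha2 lay lower, at 6.83 and 5.79 FPKM against 8.012 and 8.002 in vector cells, a log2 difference of -0.31 (SE 0.17). The direction of Epha2 was the same in osteogenic medium, with a log2 difference of -0.57 (SE 0.17). Of the other ligands, Efnb1, the close paralog of Efnb2, was 11.87 and 11.61 FPKM in vector cells and 11.22 and 9.91 in EphrinB2 cells. Efna4 was 3.34 and 3.09 FPKM against 2.66 and 1.71. Both of these ligands lay lower in both EphrinB2 libraries. Efna5 was 11.22 and 11.17 FPKM against 11.42 and 17.61, which puts nearly all of its difference in replicate 2. The remaining members lay within 0.25 of 0 in log2 difference: Epha3 and Efna2 lay higher in both libraries, Efna2 overlapping under 1 of 3 other scalings, and Epha7 and Efna1 overlapped.

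**Figure D1:**
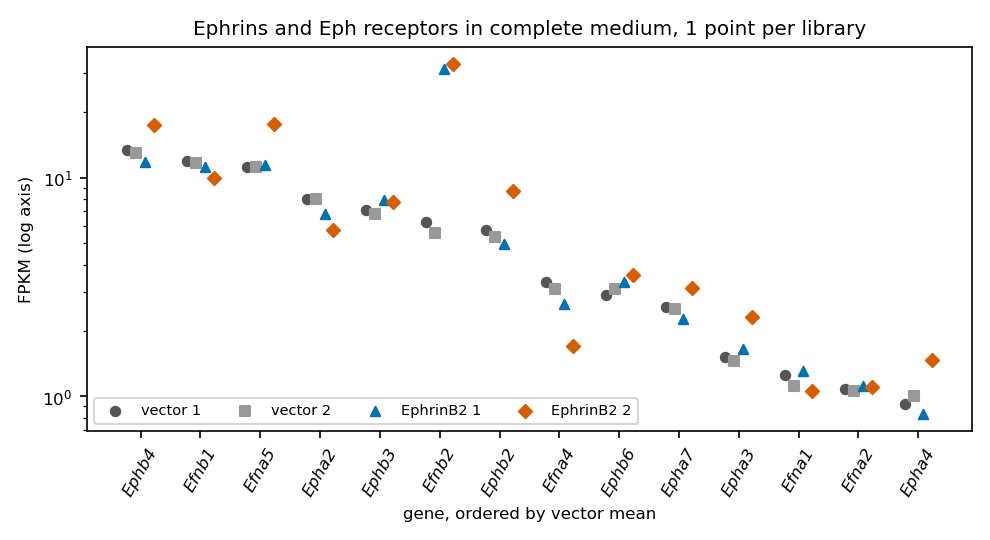
FPKM (log axis) of the 14 tested ephrins and Eph receptors in complete medium, 1 point per library, ordered by the vector mean. Efnb2 is the only member whose EphrinB2 libraries (31.27 and 32.85 FPKM) lie far above both vector libraries (6.30 and 5.56 FPKM).

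Proteins that carry the reverse signal from ephrin-B tails, and co-receptors listed with them, showed as little. Of 21 tested, 2 lay higher and 4 lower, with a median log2 difference of -0.01 against 0.01 over all genes. Gpc3, a glypican, was 19.53 and 22.21 FPKM in vector cells and 24.66 and 30.97 FPKM in EphrinB2 cells. Dvl3, a Dishevelled adaptor, was 12.43 and 11.71 against 9.18 and 10.84 FPKM. Both genes were named after their values were seen.

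Over the whole table, limma called 0 genes higher (0.0%) and 1 lower (0.0077%) in EphrinB2 cells. At an unadjusted p under 0.05 there were 70 higher and 97 lower, 167 in all. The called gene was Mir3569, a microRNA gene of 58 bases (chr7:30589380-30589437, plus strand). It was listed at 4.60 and 3.71 FPKM in vector cells and at 0 in both EphrinB2 libraries and in all 4 osteogenic libraries. Those vector values amount to an estimated 5 and 4 reads. The groups at 0 in both libraries add no spread to the pooled model. Mir3569 passed the filter only through the vector libraries in complete medium, so its call cannot count as support. Its log2 difference of -2.36 (SE 0.17, limma adjusted p = 0.0372) was no longer called under 13 of the alternatives, which are given in the closing section. Its mature products, from RefSeq on GRCm38.p6 with the seed in capitals, are shown since this is the only call.
mmu-miR-3569-5p: uCGGAGGAgagcagaccggug
mmu-miR-3569-3p: uCAGUCUGcgcuccucuccagc
Both lie inside the same short exon, and reads of a total RNA library do not tell the mature products from their precursor.

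Counted by the rule of non-overlapping libraries, 1858 genes lay higher in both EphrinB2 libraries (14.3%) and 1493 lower (11.5%). In random order, 4 libraries would set the groups apart for a share of 0.333, both directions together. These counts alone therefore do not measure an effect. With EphrinB2 replicate 1 left out these became 5864 and 5340, and with replicate 2 left out 5179 and 4910. Most steps were small. A gap of at least 1.5-fold between the nearest libraries was found for 18 genes higher (0.139%) and 39 lower (0.3%). Of these 57, 43 had under 300 bases of exon and 38 were small RNAs, 8 were pseudogenes and 6 other non-coding RNAs. The median over the 57 genes of the highest library's estimated reads was 5.0. Snord73a, a small nucleolar RNA named after its values were seen, illustrates the class. It went from 0.78 and 0.79 FPKM to 3.05 and 2.67 FPKM on an estimated 1, 1, 4 and 3 reads. Only 5 of the 57 were protein-coding: Efnb2 and S100a9 were higher, and Cxcl5, Saa3 and Mt2 lower.

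S100a9, a calcium-binding protein of neutrophils and an alarmin, was listed at 0 in both vector libraries. It reached 0.595 and 1.161 FPKM in EphrinB2 cells, on an estimated 6 and 10 reads. In osteogenic medium it was listed at 0 except in EphrinB2 replicate 1, at 9.04 FPKM. S100a9 thus passed the filter only through EphrinB2 libraries, so its direction cannot count as support.

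**Figure D2:**
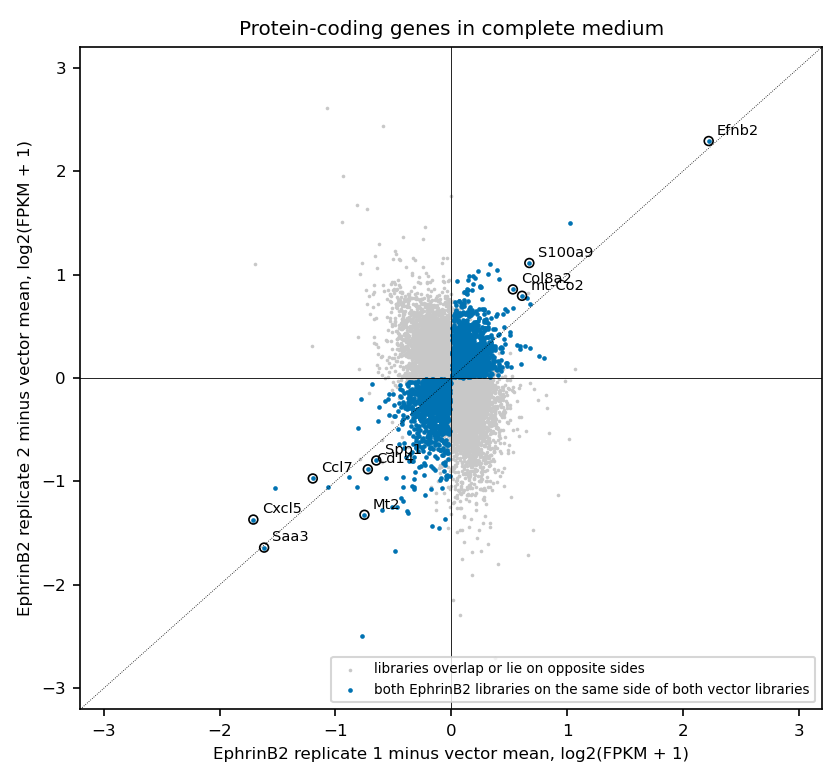
Each point is 1 of the 11225 tested protein-coding genes, placed by the log2(FPKM + 1) difference of EphrinB2 replicate 1 (x axis) and replicate 2 (y axis) from the vector mean. Blue points are genes whose EphrinB2 libraries both lie on the same side of both vector libraries, and the dotted line marks equal differences. Efnb2 lies alone at the upper right, and Cxcl5, Saa3 and Ccl7 lie at the lower left.

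The widest gaps on the lower side were those of Cxcl5, Saa3 and Mt2. Cxcl5, a neutrophil-attracting chemokine (chr5:90759360-90761624), was 16.15 and 17.11 FPKM in vector cells and 4.39 and 5.83 FPKM in EphrinB2 cells. Each pair was tight and the ratio of means was 0.307. The log2 difference was -1.54 (SE 0.25, limma adjusted p = 0.938), the smallest adjusted p among the 24 genes with the widest gaps. It passed, at an adjusted p of 0.043 and a log2 difference of -1.71, only with EphrinB2 complete replicate 2 and EphrinB2 osteogenic replicate 1 both left out. Saa3, an acute-phase apolipoprotein (chr7:46711998-46715700), was 22.93 and 10.91 FPKM against 4.51 and 4.42 FPKM. The vector libraries differed from each other by about as much as the gap between groups, and the SE was 0.76 on a log2 difference of -1.63. Mt2, a metal-binding metallothionein (chr8:94172664-94173568), was 3.18 and 2.93 FPKM against 1.41 and 0.62 FPKM, a log2 difference of -1.04 (SE 0.37). Mt2 rested on few reads, an estimated 35, 32, 16 and 6. Its paralog Mt1, named after its values were seen, did not share the step: it was 34.76 and 40.41 FPKM against 50.54 and 18.98 FPKM.

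Chemoattractants of monocytes were also among the 12. Ccl7 was 60.47 and 124.5 FPKM in vector cells and 37.37 and 43.82 FPKM in EphrinB2 cells. Ccl12 was 10.13 and 11.51 FPKM against 7.43 and 2.71 FPKM. Ccl2, near both on chromosome 11 and named after its values were seen, was 54.75 and 162.1 FPKM against 32.22 and 44.75 FPKM. For Ccl7 and Ccl2 the vector libraries lay far apart, and the smaller vector value was still above both EphrinB2 values. Ptx3, a secreted pattern-recognition protein made by fibroblasts and macrophages, was 88.73 and 112.7 FPKM against 67.50 and 50.73 FPKM. Spp1 encodes osteopontin, a matrix phosphoprotein of bone and of activated macrophages. It was 164.6 and 138.2 FPKM against 95.97 and 86.38 FPKM, a log2 difference of -0.72 (SE 0.41).

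Some of the remaining genes are known from myeloid cells. Cd14, a co-receptor for bacterial lipopolysaccharide, was 14.15 and 11.28 FPKM in vector cells and 7.28 and 6.40 FPKM in EphrinB2 cells. Fermt3, the integrin activator kindlin-3 of blood cells, was 9.36 and 8.62 FPKM against 6.25 and 6.09. For both, the EphrinB2 libraries lay close together. Lilr4b was 12.23 and 12.03 FPKM against 8.73 and 4.87 FPKM. Lilrb4a was 6.51 and 5.91 against 4.201 and 2.03 FPKM. These 2 genes of immunoglobulin-like receptors are near-identical neighbours that may share reads, so they count as 1 uncertain observation. Thumpd2, at 3.42 and 3.30 against 2.29 and 1.73 FPKM, closed the 12 widest gaps with -0.39 on the log2 scale. Il21r followed with -0.38.

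Upstream sequence is shown for 3 of these genes because they lay lower together and belong to classes with known promoter elements. RefSeq's promoter table (GRCm38.p6) matched 14 of the 24 genes with the widest gaps. The stretch printed runs from 230 to 31 bases before the start, 5′ to 3′ on the gene's strand. Capitals mark the C/EBP motif TTNNGNAA in Saa3 and Ptx3, on either strand. In Mt2 they mark TGCNCNC, a looser pattern than the core of the metal response element, also on either strand.
Saa3 (chr7:46715707-46715906, minus strand): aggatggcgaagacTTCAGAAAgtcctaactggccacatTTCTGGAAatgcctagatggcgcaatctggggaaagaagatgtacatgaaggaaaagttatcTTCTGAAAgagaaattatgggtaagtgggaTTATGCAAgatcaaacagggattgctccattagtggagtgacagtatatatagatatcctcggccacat
Ptx3 (chr3:66219657-66219856, plus strand): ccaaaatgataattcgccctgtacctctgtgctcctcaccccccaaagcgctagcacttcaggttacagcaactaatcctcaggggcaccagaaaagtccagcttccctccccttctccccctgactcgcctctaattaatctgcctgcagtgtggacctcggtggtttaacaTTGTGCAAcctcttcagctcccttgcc
Mt2 (chr8:94172388-94172587, plus strand): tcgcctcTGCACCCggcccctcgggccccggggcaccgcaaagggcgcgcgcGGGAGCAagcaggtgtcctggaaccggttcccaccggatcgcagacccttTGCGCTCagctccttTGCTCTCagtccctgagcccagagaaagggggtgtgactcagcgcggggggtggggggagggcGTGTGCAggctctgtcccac
Saa3 held 4 C/EBP matches and Ptx3 held 1, while 31.2% of all 32851 promoter windows of that length hold at least 1. Mt2 held 5 matches to the looser pattern TGCNCNC, which 37.3% of windows hold at least once, and not every match need be a metal response core. The NF-kB motif, present in 5.84% of windows, had no match in these 3 windows. A match is a description of the letters, and no match overlapped another.

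The higher side held smaller steps. After Efnb2 came mt-Co2 and mt-Co3, cytochrome c oxidase subunits encoded by the mitochondrial genome. Fam189a2 was 1.51 and 1.73 FPKM in vector cells and 2.79 and 3.19 FPKM in EphrinB2 cells. Col8a2, a chain of the short-chain collagen VIII, was 6.52 and 7.23 FPKM against 10.38 and 13.25 FPKM, a log2 difference of 0.69 (SE 0.17). Actg2, the gamma actin of smooth muscle, was 1.65 and 1.62 FPKM against 2.63 and 3.19 FPKM, a difference of 0.57 (SE 0.14). Thy1, a surface glycoprotein used to mark fibroblasts, was 12.66 and 12 FPKM against 18 and 16.80 FPKM. In each of these the vector libraries lay close together and both EphrinB2 libraries lay above them.

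Lrrn2 was 2.15 and 1.85 against 3.11 and 3.22 FPKM. Acaa2, a mitochondrial thiolase of fatty acid oxidation, was 10.99 and 10.61 against 15.14 and 14.37 FPKM. Angpt4, an angiopoietin that binds the Tie2 receptor, and Stard10, a lipid-transfer protein, were also among the 12, with log2 differences of 0.42 (SE 0.19) and 0.51 (SE 0.23). Stard10 had the narrowest of the 12 gaps, 0.32 on the log2 scale, and the next gene was Ltbp2 with 0.31. Adjusted p-values of the 24 genes ran from 0.938 to 1.0 in limma, so none of these steps passed the test, Efnb2 included. All 24 kept their sign and did not overlap under quantile normalization, centring on the median or removal of the length trend.

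**Figure D3:**
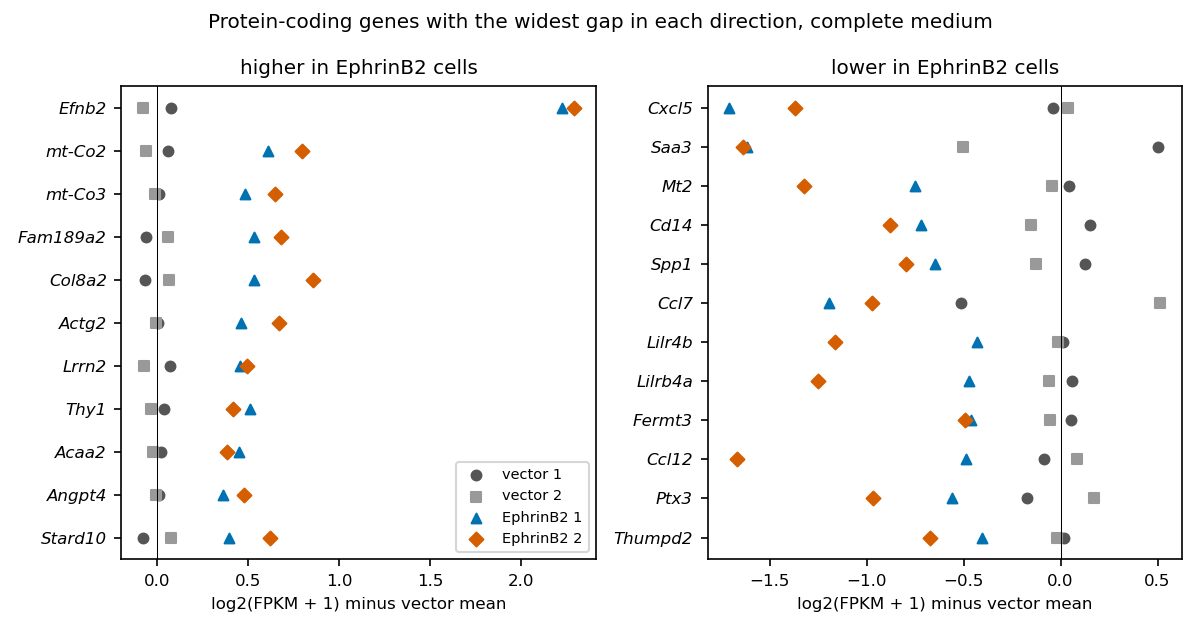
Each library's log2(FPKM + 1) minus the vector mean for protein-coding genes with the widest gap in each direction (11 of the 12 higher and all 12 lower), ordered by that gap. Vector libraries are grey and EphrinB2 libraries coloured. Vector libraries lie apart from each other for Saa3 and Ccl7, and EphrinB2 libraries for Ccl12, Lilr4b and Lilrb4a.

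Genes were then grouped by 47 lists of pathways and cell types, of which 42 had at least 5 members tested. For 24 of the 42, the median difference of EphrinB2 replicate 1 from the vector mean had the opposite sign to that of replicate 2. Both medians lay below -0.1 for 3 lists: inflammatory cytokines and chemokines, complement, and macrophage genes. Both lay above 0.1 for 3 others: myofibroblast and contractile genes, mitochondrially encoded genes, and 5 endothelial genes, of which 1 lay higher in both libraries.

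**Figure D4:**
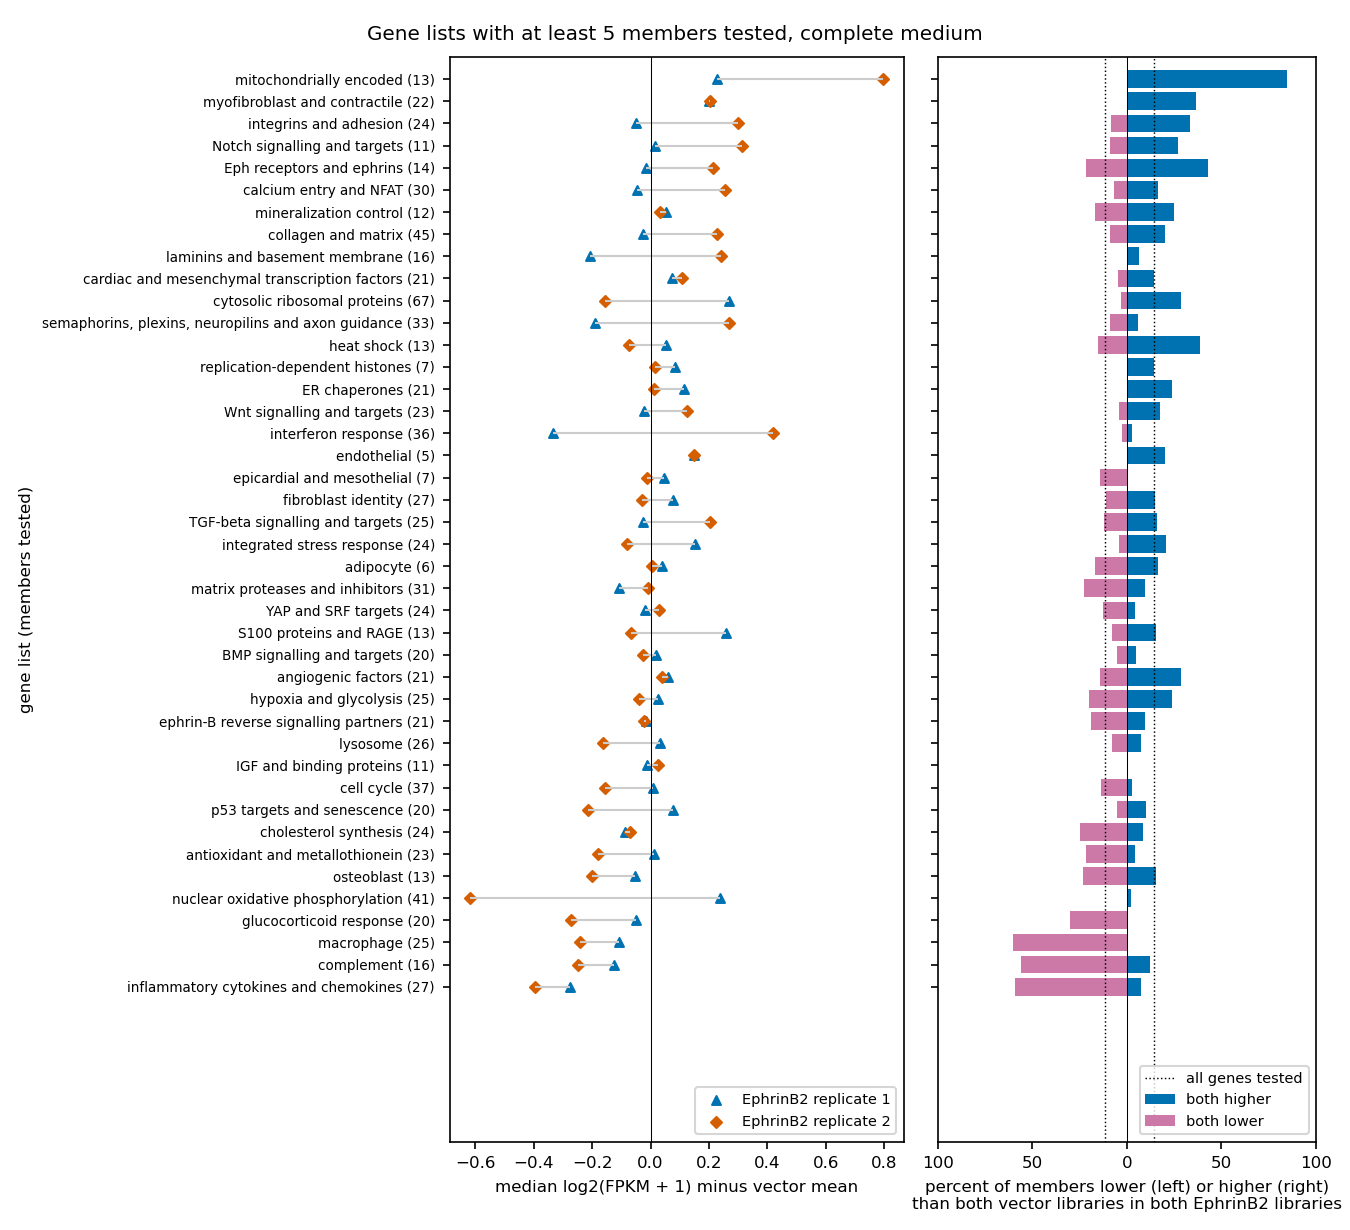
Left, the median log2(FPKM + 1) difference of each EphrinB2 library from the vector mean for the 42 lists, with the number of members tested in parentheses. Right, the percent of members lying lower or higher in both EphrinB2 libraries than in both vector libraries, with dotted lines at the share over all genes tested (11.5% and 14.3%). Inflammatory, complement and macrophage lists lie at the foot and mitochondrially encoded and contractile genes at the top.

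Of 27 tested cytokines, chemokines and related inflammatory genes, 16 lay lower in both EphrinB2 libraries (59.3%) and 2 higher, beside 11.5% and 14.3% of all genes. The median log2 difference was -0.33, with -0.27 in replicate 1 and -0.39 in replicate 2. Members named after their values were seen give the range. Csf1, the growth factor on which macrophages depend, was 318.5 and 347.0 FPKM in vector cells and 272.7 and 269.4 in EphrinB2 cells. Cxcl1, a neutrophil chemokine, was 1.96 and 5.19 against 1.44 and 1.07 FPKM, and Lcn2, the iron-binding lipocalin, was 5.98 and 1.29 against 0.91 and 0.92 FPKM. For these last 2 the vector libraries differed by more than the gap to the EphrinB2 libraries. Ptgs2, the inducible cyclooxygenase, was among the 2 exceptions, at 0.99 and 1.11 FPKM against 1.15 and 1.43. No member passed the limma test, and 4 had an unadjusted p under 0.05. The count lower was 13 with the length trend removed and 15 under either other scaling.

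Complement genes also lay lower in part: of 16 tested, 9 lay lower (56.2%) and 2 higher, beside 11.5% and 14.3% of all genes. The median was -0.24. Both anaphylatoxin receptors were among the 9. C5ar1 was 18.97 and 14.76 FPKM against 12.31 and 8.12 FPKM, a log2 difference of -0.69 (SE 0.23). C3ar1 was 9.49 and 8.58 FPKM against 6.92 and 6.86 FPKM. C4b, a component of the classical pathway, was 24.85 and 26.29 FPKM against 18.49 and 21.41 FPKM, and C3, the central component, was 411.5 and 385.3 against 247.5 and 382.2 FPKM. The step in C3 thus lay almost wholly in replicate 1. These 4 genes were named after their values were seen.

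Of the macrophage genes, 15 of 25 tested were lower in both EphrinB2 libraries and 0 higher, beside 11.5% and 14.3% of all genes. The median was -0.21. The count was 9 after centring on the median, and after quantile normalization it was 14, with 2 members higher. Lyz2, the macrophage lysozyme, was 1593 and 1392 FPKM in vector cells and 1328 and 550.8 in EphrinB2 cells. Itgam, the CD11b integrin chain, was 3.80 and 4.01 against 2.88 and 1.99 FPKM, and Tyrobp, a myeloid signalling adaptor, was 51.67 and 50.84 against 47.44 and 18.18 FPKM. In each, replicate 2 was the lower EphrinB2 library. Itgam and Tyrobp were named after their values were seen. The C1q chains followed: C1qa was 161.8 and 138.8 FPKM against 142.2 and 82.84. C1qb overlapped likewise, at 147.7 and 124.3 against 125.7 and 73.72 FPKM. Other defining markers lay close to their vector values: Cd68 was 28.77 and 27.87 against 26.94 and 27.54 FPKM, and Adgre1, the F4/80 antigen, was 21.98 and 23.09 against 19.19 and 22.67 FPKM. Csf1r was 26.00 and 22.20 FPKM against 18.93 and 26.18.

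In bulk samples, fewer cells of a type and less RNA per cell cannot be told apart. Of the 10 macrophage markers, 4 lay lower in both EphrinB2 libraries and 0 higher, beside 11.5% and 14.3% of all genes. The 4 gaps were narrow on the log2 scale: -0.067 for Lyz2, -0.017 for Cd68, -0.009 for Fcgr1 and -0.0004 for C1qc. The sum of the 10 markers stood at 0.897 of the vector mean in replicate 1 and at 0.433 in replicate 2 (0.922 and 0.646 without Lyz2), beside the lower inflammatory and complement genes. Its part in those results was not tested. Of the 12 lower genes with the widest gaps, 10 were lower in replicate 2 than in replicate 1, and Cxcl5 and Ccl7 were lower in replicate 1. With replicate 2 left out, 18 inflammatory, 10 complement and 20 macrophage genes lay lower, where 37.8% of all genes did. With replicate 1 left out these counts were 21, 12 and 18, where 41.1% of all genes did. The 25 macrophage genes had a median exon length of 2695 bases, against 3957 over all genes.

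On the higher side, contractile genes had nearly the same median in both EphrinB2 libraries. Of 22 tested, 8 lay higher in both EphrinB2 libraries (36.4%) and 0 lower, beside 14.3% and 11.5% of all genes. All 22 had a positive mean difference. The median was 0.23, with 0.20 in each EphrinB2 library. After quantile normalization 6 lay higher and 1 lower, and with either EphrinB2 library left out 15 lay higher, where 39.9% or 45.1% of all genes did. Acta2, the smooth muscle alpha actin that defines myofibroblasts, was 890.2 and 760.4 FPKM against 1025 and 939.3 FPKM, a log2 difference of 0.25 (SE 0.25). Tpm2, a tropomyosin, was 68.24 and 56.77 against 79.38 and 78.84 FPKM. Cnn2, a calponin, was 198.1 and 168.7 against 211.0 and 246.3 FPKM. The EphrinB2 libraries lay above both vector libraries by gaps smaller than the distance between the vector libraries themselves. These genes were named after their values were seen, and no member passed the limma test. Markers of smooth muscle and pericytes summed to 2.41 and 2.595 FPKM in vector cells and 2.99 and 3.73 in EphrinB2 cells, and their part in this result was not tested.

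All 13 protein genes of the mitochondrial genome had a positive mean difference. Of these, 11 lay higher in both EphrinB2 libraries (84.6%), beside 14.3% of all genes. Their summed FPKM was 8384 and 8690 in vector cells and 9245 and 13990 in EphrinB2 cells, so most of the step lay in replicate 2. With either EphrinB2 library left out, 12 lay higher, beside 39.9% or 45.1% of all genes. mt-Co2 was 28.62 and 26.16 FPKM against 42.32 and 48.22 FPKM, and mt-Co3 was 13 and 12.82 against 18.43 and 20.80 FPKM. These values lie far under those of mt-Co1, at 2908 and 2981 against 3080 and 4105 FPKM. Nuclear copies of mitochondrial genes can take up reads, so the counts of mt-Co2 and mt-Co3 are uncertain. The copy Gm10925 on chromosome 1 went from 17.70 and 17.44 to 27.73 and 25.93 FPKM. Which mitochondrial gene it copies was not checked, and its part in these counts was not tested. mt-Nd6, a complex I subunit on the other strand, was 598.4 and 647.4 against 785.7 and 1334 FPKM, and mt-Nd1 was 1305 and 1350 against 1464 and 2561 FPKM. The count higher was 7 after quantile normalization or removal of the length trend. mt-Co1, mt-Nd1, mt-Nd6 and Gm10925 were named after their values were seen.

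Nuclear genes of the same respiratory chain did not share this. Of 41 tested, 1 lay higher and 0 lower, because the libraries lay on opposite sides: the median was 0.24 in replicate 1 and -0.62 in replicate 2. Cytosolic ribosomal protein genes split in the same way, with 0.27 and -0.16, and 19 of 67 higher (28.4%), beside 14.3% of all genes. Both lists hold short genes, with median exon lengths of 1237 and 1770 bases. Laminin and basement membrane genes, with a median of 8155 bases, split the other way, with -0.21 and 0.24. Interferon-response genes had medians of -0.33 and 0.42, and the vector libraries also differed: Ifit1, named after its values were seen, was 3.94 and 33.53 FPKM in vector cells and 7.68 and 69.71 in EphrinB2 cells.

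Matrix genes shifted little in replicate 1 and more in replicate 2. Of 45 tested collagens and matrix genes, 9 lay higher and 4 lower (8.89%), beside 14.3% and 11.5% of all genes. The median was 0.09, with -0.02 in replicate 1 and 0.23 in replicate 2. The list's median exon length was 6809 bases. Besides Col8a2, Col15a1, a collagen of basement membrane zones, was 26.43 and 28.63 FPKM against 35.18 and 41.63 FPKM. Eln, which encodes elastin, was 115.4 and 127.1 FPKM against 194.9 and 148.6 FPKM. Lox, an enzyme that cross-links elastin and fibrillar collagens, was 695.0 and 725.0 against 799.7 and 831.3 FPKM. All 3 lay above the vector libraries in both EphrinB2 libraries and were named after their values were seen. The abundant fibrillar chains showed smaller steps: Col3a1 was 1942 and 1808 against 1979 and 2168 FPKM, and Col1a1 overlapped at 1456 and 1422 against 1422 and 2087 FPKM. Dcn, a small proteoglycan, was 232.1 and 222.6 against 221.6 and 118.2 FPKM.

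Matrix proteases divided by member, with 3 of 31 higher and 7 lower (22.6%), beside 14.3% and 11.5% of all genes. Mmp14, a membrane-bound collagenase, was 94.97 and 97.38 against 112.5 and 133.1 FPKM. Mmp12, the macrophage elastase, was 9.06 and 9.09 against 6.53 and 6.85 FPKM, Adam8 was 15.98 and 15.45 against 10.86 and 11.96 FPKM, and Plaur, the urokinase receptor, was 5.48 and 4.97 against 3.78 and 1.55 FPKM. The 3 lower genes had tight vector pairs, and all 4 were named after their values were seen.

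Integrins and adhesion genes lay higher in 8 of 24 (33.3%) and lower in 2, beside 14.3% and 11.5% of all genes. Itgb1, the common beta chain, was among the 8, at 531.4 and 573.7 against 592.0 and 656.6 FPKM. The list's median was -0.05 in replicate 1 and 0.30 in replicate 2, and its median exon length was 7250 bases. Of 21 angiogenic factors, 6 lay higher (28.6%) and 3 lower, beside the same shares of all genes. Fgf18 was 12.22 and 12.40 against 19.07 and 15.53 FPKM, and Pdgfa was 8.50 and 7.75 against 10.59 and 11.18 FPKM. Heyl, a Notch target, was 12.67 and 12.47 against 16.66 and 15.87 FPKM. These 4 genes were named after their values were seen.

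The study's other question is osteogenic differentiation, and in complete medium the bone genes gave no common direction. Of 13 tested osteoblast genes, 2 lay higher (15.4%) and 3 lower (23.1%), with a median of -0.14. Runx2, the master transcription factor of osteoblasts, was 3.11 and 2.80 FPKM in vector cells and 2.81 and 2.37 in EphrinB2 cells. Alpl, tissue-nonspecific alkaline phosphatase, was 3.598 and 3.345 against 2.81 and 3.43 FPKM. Both overlapped and were named after their values were seen. Spp1, described above, had the widest gap of the list. Of 20 glucocorticoid-response genes, 6 lay lower and 0 higher, beside 11.5% and 14.3% of all genes, and under each of the 3 other scalings 2 lay higher. Mt2 and Lcn2 were among the 6.

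The osteogenic libraries, which share no library with this comparison, show how the same genes stood in another medium. There, 3331 genes lay higher in both EphrinB2 libraries (25.6%) and 2899 lower (22.3%), though EphrinB2 osteogenic replicate 1 stood apart from all others. Of the 1858 genes higher in complete medium, 676 were higher there too, which is 36.4% of the first list and 20.3% of the second, and 190 (10.2%) were lower. Of the 1493 lower genes, 421 were lower there, which is 28.2% of the first list and 14.5% of the second, and 229 (15.3%) were higher. In all, 1097 genes kept their direction and 419 took the opposite one.

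The genes with the widest gaps were followed singly. Of the 12 higher genes, 7 lay higher in both EphrinB2 libraries in osteogenic medium, 0 lay lower and 11 had the same sign. Efnb2, the overexpressed gene itself, counts in both the 7 and the 11. Of the 12 lower genes, 2 lay lower there, 1 higher, and 5 had the same sign. The 2 are Lilr4b and Lilrb4a, the pair that may share reads. The 2 EphrinB2 libraries went opposite ways for most lower genes. Replicate 1, the library that stood apart, lay above both vector libraries for 10 of the 12, and replicate 2 lay below both for 9, Saa3, Cd14, Spp1, Ccl7, Ccl12 and Ptx3 among them. Of the 12 higher genes, replicate 1 likewise lay above both vector libraries for 10, and replicate 2 for 8. With 10 of 12 above on either side, replicate 1 does not tell the sides apart. Whether the 2 sides differ was not tested. Cxcl5 was 17.80 and 19.05 FPKM in vector cells and 30.17 and 18.46 in EphrinB2 cells in osteogenic medium, so its groups overlapped there. Its interaction, the difference in osteogenic minus that in complete medium, was 1.88 on the log2 scale (SE 0.35, limma adjusted p = 0.746). For Mt2, at 24.78 and 16.52 against 50.15 and 24.34 FPKM, the interaction was 1.80 (SE 0.53, limma adjusted p = 0.746). Spp1 was 244.5 and 272.2 against 426.0 and 165.1 FPKM. No interaction passed in limma over all genes. At an unadjusted p under 0.05 there were 214, and the smallest adjusted p was 0.347.

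**Figure D5:**
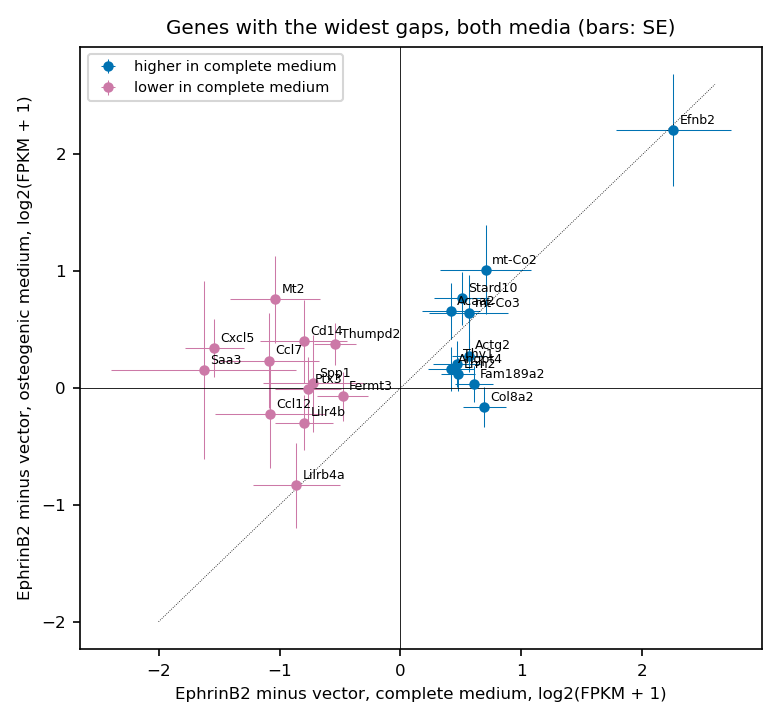
Log2 difference of EphrinB2 from vector cells in complete medium (x axis) and in osteogenic medium (y axis) for 23 of the 24 genes with the widest gaps, with SE bars from limma. Efnb2 lies at 2.26 and 2.21, near the dotted line of equal differences, while Cxcl5 (-1.54 and 0.34) and Mt2 (-1.04 and 0.76) lie on opposite sides of 0.

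Among the lists, 12 of 22 contractile genes lay higher in osteogenic medium and 2 lower, beside 25.6% and 22.3% of all genes. Of the macrophage genes, 8 of 25 lay lower and 0 higher, and of the inflammatory genes 6 of 27 lay lower and 2 higher. Complement genes were 6 lower and 2 higher of 16. The share of inflammatory genes lower is close to that of all genes. The 2 EphrinB2 libraries had medians of opposite sign for macrophage genes, 0.28 in replicate 1 and -0.25 in replicate 2, and for inflammatory genes, 0.18 and -0.21. Summed FPKM of the macrophage genes was 5219 and 5489 in vector cells and 9095 and 4618 in EphrinB2 cells.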

How the data were processed

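Gene expression was measured by RNA-seq of total RNA. The authors deposited 1 table of FPKM values for 54532 genes in 8 libraries. The submitters' processing notes name CASAVA, HISAT2 2.0.5, featureCounts 1.5.0-p3, DESeq2 1.16.1 and mm10. The sources used here do not give the annotation release, the strand setting or filters, so reads of a gene and of one that overlaps it on the other strand may be mixed. Symbols, exon lengths and places came from GENCODE M21 on GRCm38, the assembly of mm10. Read numbers were estimated from the steps between low FPKM values and cover counting error only.

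FPKM are not counts, so log2(FPKM + 1) was fitted in limma 3.58.1 (R 4.3.3) over all 8 libraries with 1 mean per group and a mean-variance trend. Genes needed an FPKM of at least 1 in 2 libraries, and the threshold was an adjusted p of 0.05. A fold change on this scale understates that of low genes. Replicates were numbered in listed order, which pairs nothing. The steps were tested on simulated data. Named genes were Efnb2, called genes, the 12 widest gaps in each direction among named protein-coding genes with a mean FPKM of at least 2, tested ephrins and Eph receptors, list members with a gap of at least 1.5-fold, and cell type markers, of which some are not reported here. Members, lists and rules were chosen with earlier results of these data known. Alternatives varied the pseudocount, filter, scaling, weights, trend and libraries.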

Additional observations from a re-analysis of the deposited data

Results flagged for a closer look

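Some genes lay apart in one direction in complete medium and in the opposite direction in osteogenic medium. The limma interaction, the log2 difference in osteogenic minus that in complete medium, was 0.92 for Thumpd2, -0.64 for Efna5, 0.70 for Dcn, -0.31 for Col1a2 and -0.61 for Ptgs2. None passed the threshold after adjustment. Many of the gaps were narrow. On the log2 scale, in complete and then osteogenic medium, they were 0.023 and -0.059 for Efna5, and -0.006 and 0.045 for Dcn. They were 0.097 and -0.0001 for Col1a2, 0.026 and -0.153 for Ptgs2, and -0.387 and 0.095 for Thumpd2. For 3 lists the medians had opposite signs for both EphrinB2 libraries in the 2 media, a difference that was not tested. The osteogenic median was 0.10 for osteoblast genes (-0.14 in complete medium), -0.078 for the 5 endothelial genes (0.05 in complete medium) and 0.076 for glucocorticoid response genes (-0.20 in complete medium).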

How the results depend on the processing

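The limma call of 1 gene became 0 with a pseudocount of 0.1, an FPKM of at least 5, the 4 complete medium libraries alone, quality weights, the length trend removed, or (an alternative chosen after seeing the data) genes of at least 300 bases. It became 15 without the filter, where the interaction gave 22, and 2 without both libraries that stood apart (EphrinB2 complete replicate 2 and osteogenic replicate 1). Leaving out 1 library gave 0 to 1, the 1 being Efnb2 without either EphrinB2 osteogenic library. The cause was not tested. Efnb2 passed without either EphrinB2 osteogenic library (2.26) or without both apart (2.22), and ran from 2.18 to 2.33 with 1 library left out. The 3351 genes lying apart became 6530 unfiltered, 1900 at an FPKM of at least 5, 10089 without both, and 3351 to 11204 with 1 library left out, since fewer libraries overlap less. The 57 gaps of at least 1.5-fold became 138 and 7 with pseudocounts of 0.1 and 5, 88 and 8 under the 2 filters, 14 among longer genes, 232 without both, and 57 to 1189 with 1 left out. Macrophage genes lower were 9 after centring. Contractile genes higher were 5 at an FPKM of at least 5, 15 without both, and 8 to 15 with 1 left out. Mitochondrially encoded genes higher were 7 after quantile normalization or with the length trend removed. Of 745 values for 38 named genes, 717 stayed on their side, 13 lost a call (all Mir3569), 1 gained one (Cxcl5), 14 in 5 genes changed sign with no call, and 0 reversed a call. No paired analysis was possible because the labels give no replicate numbers shared between groups.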
